A study of Homo sapiens and Mus musculus with 19 samples.

Results

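The comparison asked how the RNA bound to chromatin differed between K562 cells without a working TET2 gene and K562 cells with it, when both carried a short hairpin RNA against MBD6. Its members were the 3 libraries labelled TET2 KO shMBD6 and the 3 labelled TET2 WT shMBD6, which made 6 of the 12 K562 libraries and 6 of the 19 libraries of the series. K562 is an established human leukaemia line with erythroid and megakaryocytic features, which the labels call a lymphoblast. Both groups were sequenced as chromatin-associated RNA (caRNA), which holds nascent transcripts and nuclear noncoding RNA. The other 6 K562 libraries, TET2 WT shControl and TET2 KO shControl, gave the same genotype difference under a control hairpin and share no library with the comparison described here. The study's methods name WT and TET2 KO K562 cells as gifts from another laboratory, and also WT K562 cells from a culture collection. Which WT cells served here and whether the TET2 KO line is 1 clone was not given in the sources used here. Differences between the 2 lines that arose apart from TET2 thus cannot be told apart from the genotype. All 4 groups were kept in puromycin, which selects cells carrying the hairpin vector.

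TET2 is an enzyme that oxidises 5-methylcytosine in DNA and RNA, and its loss is a frequent lesion of myeloid leukaemia. MBD6 is a methyl-CpG-binding-domain protein that joins the PR-DUB complex, which takes ubiquitin off histone H2A, while Polycomb repressive complex 1 (PRC1) puts it on. In nuclear RNA of this kind, most reads of a gene come from unspliced transcripts, so the level of a gene follows transcription and retention on chromatin more than the amount of mature messenger RNA.

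The levels below are CPM, a gene's counts scaled to a fixed total of gene counts per library, after TMM scaling, a between-library correction, and a log2 difference is TET2 KO minus WT from edgeR's quasi-likelihood fit, with a gene called at a Benjamini-Hochberg adjusted p under 0.05. The WT shMBD6 libraries held 52158403 to 87433498 gene counts and the TET2 KO shMBD6 libraries 65967748 to 78688044. At comparable depth, 33529 to 34601 genes had at least 1 count in the WT libraries and 24480 to 26963 in the TET2 KO libraries. Between 15.6 and 16.0% of read records fell outside genes in WT, and between 15.05 and 15.15% in TET2 KO. Genes of the olfactory receptors, which are silent in blood cells and serve here as a background, averaged, per kb of their span, 0.0711 to 0.0749 CPM in the WT libraries and 0.0657 to 0.07 in the TET2 KO libraries over 400 genes. Of these, 61 passed the filter on low counts, and 8 of them reached the threshold of strong coverage given below, so not all of this set lay at background. The share of such reads in the differences below was not tested. Replicates differed by more than sampling noise, and the study calls its genome-wide data biological replicates. Whether these libraries came from separate cultures is not stated. The p-values measure the spread between them.

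The gene that was knocked out was still transcribed. TET2 (chr4:105145875-105279816) was read at 117, 125 and 123 CPM in the WT libraries and 91.9, 101 and 91.6 CPM in the TET2 KO libraries, and the groups did not overlap. Its level was lower in TET2 KO (log2 difference -0.36, SE 0.04, adjusted p = 3.9e-09), whereas under shControl it was 121 ± 2.59 CPM in WT and 129 ± 2.22 CPM in TET2 KO (log2 difference 0.09, adjusted p = 0.0735). The 2 differences were themselves apart by -0.45 on the log2 scale (adjusted p = 5.01e-08). An edited allele that is still transcribed keeps its reads, so gene counts do not report on the protein.

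MBD6 (chr12:57520710-57530148), the gene targeted by the hairpin, was read at 30.9, 25.7 and 27.2 CPM in the WT libraries and 30.6, 38.3 and 34.2 CPM in the TET2 KO libraries, and the groups overlapped. It was higher in TET2 KO (log2 difference 0.30, SE 0.08, adjusted p = 0.00139), but the call was lost with total gene counts as the scale (log2 difference 0.15, adjusted p = 0.106), with DESeq2's Wald test (0.18, adjusted p = 0.0563) and with strongly covered genes scaled on themselves (0.05, adjusted p = 0.615). Against shControl, where MBD6 stood at 41.5 ± 2.55 CPM in WT and 30.2 ± 0.75 CPM in TET2 KO, the hairpin libraries were lower in WT (log2 difference -0.57, adjusted p = 1.83e-07) and not in TET2 KO (log2 difference 0.19, adjusted p = 0.0574). The libraries labelled TET2 KO shMBD6 were thus not called lower for the gene that their label names, and every direction below is between libraries labelled shMBD6.

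The markers of K562 summed to 566 to 582 CPM in the WT libraries and 688 to 705 CPM in the TET2 KO libraries, with HBG2 and HBE1, 2 of 11, at 0 in all 6. Reads that were ambiguous or not unique were not counted, so 0 counts do not show that a gene was not transcribed. B-cell markers summed to 13.8 to 15.8 CPM in WT and 3.69 to 6.24 in TET2 KO, natural killer-cell markers to 6.91 to 8.28 and 1.82 to 2.76, and fibroblast markers to 5.22 to 6.04 and 1.64 to 2.15, with none of these 14 genes at 0 in all 6 libraries. T-cell markers summed to 2.71 to 3.08 CPM in WT and 1.25 to 3.35 in TET2 KO, monocyte markers to 2.2 to 3.88 and 1.77 to 2.01. Granulocyte markers summed to 4.86 to 6.67 CPM and 5.97 to 8.45, with ELANE and S100A8, 2 of 5, at 0, and epithelial markers, mostly KRT8 and KRT18, to 109 to 113 and 96.4 to 104. Markers of B cells, natural killer cells, monocytes and fibroblasts were thus low in both groups and lower in TET2 KO, and their part in the results was not tested. In bulk samples, fewer cells of a type and less RNA per cell cannot be told apart.

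Of 26023 genes tested, 15260 were called, which is 58.6% of them. TET2 KO was higher for 7838 genes (30.1%) and lower for 7422 (28.5%), and the median log2 difference over all genes was -0.03. The balance rested on the scaling, since higher genes were 51.4% of calls with TMM, 41.8% with DESeq2's size factors and 39.6% with total gene counts, which moved the median of all genes to -0.15 and -0.18. Large differences went mainly one way: of the called genes, 1323 rose and 5679 fell by 2-fold or more.

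The direction followed the level of the gene. Genes with a mean of at most 0.2 CPM over the 6 libraries had a median log2 difference of -1.90 (3998 genes) and those of 0.2 to 1 CPM one of -1.22 (6375 genes). Between 1 and 5 CPM the median was -0.12 (4555 genes), between 5 and 20 CPM it was 0.30 (3725 genes) and between 20 and 100 CPM 0.29 (4829 genes), and above 100 CPM it was 0.15 (2540 genes). Among the genes kept, weakly read ones were thus lower in TET2 KO and well-read ones higher. Under shControl the medians of the same groups of genes lay between -0.50 and 0.13. From shControl to shMBD6, genes of at most 0.2 CPM had a median log2 difference of 0.70 in WT and -0.66 in TET2 KO. For those of 0.2 to 1 CPM the medians were 0.79 and -0.28. The filter kept a gene that reached a minimum count in as many libraries as a group holds. A weakly read gene could thus enter through the group where it was higher, and the part of this in the lowest medians was not tested. Without the filter the median of all genes was -0.55, and with a filter of 1 CPM in 3 libraries it was 0.07.

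**Figure D1:**
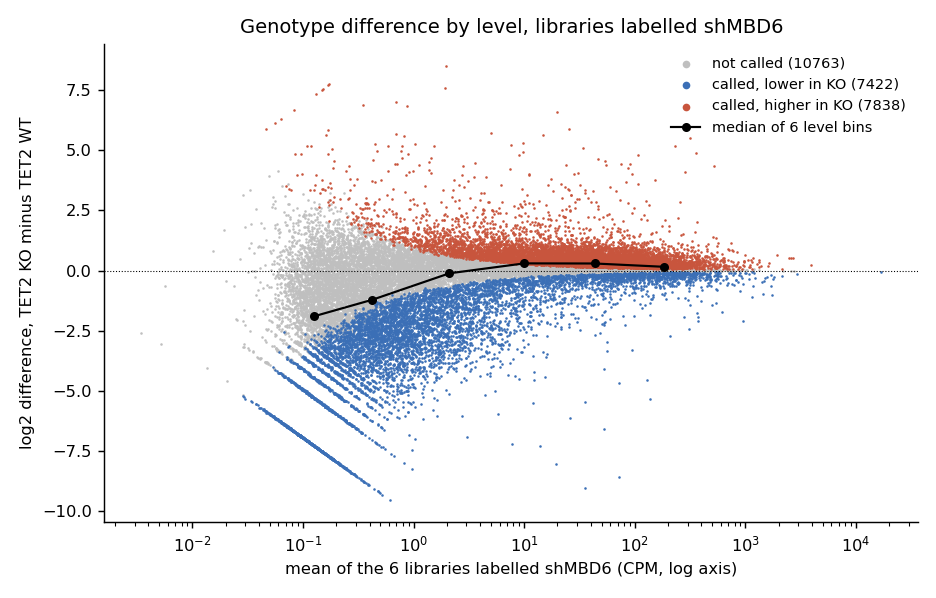
Each point is 1 of the 26023 genes, with its mean CPM over the 6 libraries labelled shMBD6 on a log axis and its log2 difference, TET2 KO minus WT, on the vertical axis. The black line joins the medians of 6 level bins, which run from -1.90 for the lowest genes to 0.15 for the highest and are above 0 from 5 CPM upwards. The filter on low counts could let weakly read genes in through the group where they were higher.

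To separate weakly and strongly covered genes, a level per length was used, with a threshold set after the data were seen: 9591 genes reached 0.506 CPM per kb. This is 7.19 times the mean olfactory-receptor level of 0.0704 CPM per kb over the 6 libraries, and 10 times that level when it is counted against all read records without TMM (0.0506). Of these strongly covered genes, 5779 (60.3%) were higher in TET2 KO and 1134 (11.8%) lower, with a median log2 difference of 0.29, and of those called 521 rose and 133 fell by 2-fold or more. The remaining 16432 genes held 2059 (12.5%) higher and 6288 (38.3%) lower, with a median of -0.79, and 97.7% of all genes called at least 2-fold lower were among them. As said above, the filter could let weakly read genes in through the group where they were higher. When the strongly covered genes were scaled on themselves, 3268 were higher and 2834 lower, with a median of 0.04, and 259 and 233 passed 2-fold. Higher genes were then 53.6% of calls, against 83.4% for the same genes in the fit of all genes, with p adjusted over them alone. With the 8237 genes at 10 times the receptor level on the scale of the genes, scaled on themselves, 2878 were higher and 2507 lower (53.4% of calls higher, median 0.035). The gene lists below are given on both scales, and a list of mostly strongly covered genes has the 60.3% higher and the median of 0.29 of such genes as its background. Counts hold only relative levels, so a change of all RNA per cell was not measured.

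Long noncoding RNA genes showed both patterns. Of 7289 tested, 1018 were higher and 2484 lower, with a median of -0.64, but the 1009 strongly covered ones held 461 higher and 131 lower, with a median of 0.42. Protein-coding genes were less split, with 6403 of 16266 higher, 4520 lower and a median of 0.08, and 5065 higher and 919 lower among the 7807 strongly covered.

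The largest increases were genes close to silent in WT. LINC00508 (chr12:127933689-127983854), a long noncoding RNA gene, was read at 0.321, 0.582 and 0.369 CPM in the WT libraries and 40.2, 38.8 and 39.0 CPM in the TET2 KO libraries (log2 difference 6.59, SE 0.17, adjusted p = 6.87e-26). ARHGAP15 (chr2:143091362-143768352), which encodes a GTPase-activating protein for Rac, was read at 13.1, 13.2 and 14.2 CPM in the WT libraries and 602, 598 and 646 CPM in the TET2 KO libraries (log2 difference 5.51, SE 0.10, adjusted p = 2.64e-11). USP26 (chrX:133023168-133097109), a deubiquitinase gene of the testis, was read at 0.477, 0.405 and 0.298 CPM in the WT libraries and 15.3, 16.6 and 12.7 CPM in the TET2 KO libraries (log2 difference 5.21, SE 0.17, adjusted p = 3.72e-23). In all of them the lowest TET2 KO library lay far above the highest WT library.

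XACT (chrX:113616300-114059289), a noncoding RNA known to coat the active X chromosome in human pluripotent cells, went from 22.6, 23.5 and 22.9 CPM in WT to 671, 694 and 708 CPM in TET2 KO (log2 difference 4.91, SE 0.04, adjusted p = 2.43e-41). LINC02241 (chr5:20611806-20937800) was read at 12.4, 13.3 and 11.9 CPM in the WT libraries and 442, 449 and 451 CPM in the TET2 KO libraries (log2 difference 5.16, SE 0.10, adjusted p = 7.46e-12), and LINC03056 (chr12:63292625-63360037) at 1.9, 2.01 and 1.99 CPM in the WT libraries and 60.6, 69.3 and 69.2 CPM in the TET2 KO libraries (log2 difference 5.08, SE 0.10, adjusted p = 5.79e-27). DACH1 (chr13:71437966-71867204), a transcriptional cofactor of development, was read at 6.69, 8.51 and 7.12 CPM in the WT libraries and 212, 198 and 209 CPM in the TET2 KO libraries (log2 difference 4.81, SE 0.09, adjusted p = 3.58e-18). For each of these 4 genes the genotypes did not overlap.

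Secreted and membrane proteins were among the others. PDGFD, a platelet-derived growth factor, was at 4.4 ± 0.776 CPM in WT and 102 ± 8.43 CPM in TET2 KO (log2 difference 4.56 ± 0.16, ± SE here and below). SLC18A2, the vesicular monoamine transporter, was at 0.623 ± 0.447 CPM in WT and 17.3 ± 1.52 CPM in TET2 KO (4.80 ± 0.36). AVPR1A, a vasopressin receptor, was at 0.266 ± 0.0882 CPM in WT and 5.32 ± 1.76 CPM in TET2 KO (4.37 ± 0.46). MUC19, a gel-forming mucin, was at 31.7 ± 1.75 CPM in WT and 538 ± 2.76 CPM in TET2 KO (4.09 ± 0.04). CPNE4, a calcium-dependent membrane-binding copine, was at 10.9 ± 0.275 CPM in WT and 178 ± 4.57 CPM in TET2 KO (4.03 ± 0.06). The noncoding genes LINC01087 (4.37 ± 0.10), LINC02505 (4.27 ± 0.12) and LINC02100 (4.08 ± 0.10) completed the 15 largest increases, whose log2 differences ran from 4.03 to 6.59. Of these genes, ARHGAP15, XACT, LINC01087 and CPNE4 overlap another annotated gene on their strand, so part of their reads could belong to it.

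Under shControl all 15 were called in the same direction, and the estimated difference there was larger for each. ARHGAP15, for example, stood at 3.45 ± 0.884 CPM in WT and 899 ± 16.03 CPM in TET2 KO with the control hairpin, and its 2 genotype differences were apart by -2.49 on the log2 scale (adjusted p = 3.72e-07). DACH1 differed between the pairs by -3.41 (adjusted p = 1.17e-12), its WT level being 0.789, 1.01 and 1.44 CPM under shControl and 6.69, 8.51 and 7.12 CPM under shMBD6. MUC19 and LINC00508 were not called for this difference of differences (-0.01, adjusted p = 0.896, and -0.29, adjusted p = 0.439), and the other 13 were.

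The largest decreases were genes close to silent in TET2 KO. PTPRC (chr1:198638457-198757476), which encodes CD45, the phosphatase on the surface of white blood cells, was read at 67.5, 70.5 and 76.4 CPM in the WT libraries and 0.0761, 0.257 and 0.0649 CPM in the TET2 KO libraries (log2 difference -9.07, SE 0.14, adjusted p = 1.67e-31). ZNF804A (chr2:184598529-184939492), a zinc-finger gene, was read at 139.5, 144 and 146 CPM in the WT libraries and 0.411, 0.314 and 0.389 CPM in the TET2 KO libraries (log2 difference -8.59, SE 0.09, adjusted p = 2.75e-36). LINC01818 (chr2:150169474-150356460) was read at 39.1, 39.1 and 38.3 CPM in the WT libraries and 0.168, 0.114 and 0.156 CPM in the TET2 KO libraries (log2 difference -8.04, SE 0.19, adjusted p = 6.34e-27). None of the TET2 KO libraries reached 1 CPM for any of the 3 genes.

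ROBO1 (chr3:78597239-79767998), a receptor for Slit guidance proteins, was read at 102, 104 and 108 CPM in the WT libraries and 1.14, 0.855 and 1.27 CPM in the TET2 KO libraries (log2 difference -6.58, SE 0.11, adjusted p = 1.69e-29). PAK5, a p21-activated kinase, was at 27.7 ± 2.97 CPM in WT and 0.174 ± 0.0838 CPM in TET2 KO (-7.30 ± 0.21). CSMD3, a large membrane protein, was at 51.7 ± 0.971 CPM in WT and 0.721 ± 0.312 CPM in TET2 KO (-6.13 ± 0.20). LRFN5, a synaptic adhesion protein, was at 11.4 ± 1.17 CPM in WT and 0.178 ± 0.00942 CPM in TET2 KO (-5.99 ± 0.26). TMEM163 (chr2:134455759-134719000), a zinc transporter, kept a measurable level, at 261, 272 and 262 CPM in the WT libraries and 6.8, 6.33 and 6.58 CPM in the TET2 KO libraries (log2 difference -5.34, SE 0.06, adjusted p = 1.04e-36).

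The other decreases had varied roles. CTLA4, the inhibitory receptor of T cells, was at 8.61 ± 0.388 CPM in WT and 0.228 ± 0.158 CPM in TET2 KO (-5.20 ± 0.31). DOCK10, an exchange factor for small GTPases, was at 15.5 ± 1.82 CPM in WT and 0.102 ± 0.107 CPM in TET2 KO (-7.21 ± 0.37). PARP15 was at 5.97 ± 0.273 CPM in WT and 0.045 ± 0.0403 CPM in TET2 KO (-6.95 ± 0.37). B3GALNT1, which makes the red-cell glycolipid globoside, was at 5.45 ± 0.53 CPM in WT and 0.0773 ± 0.0544 CPM in TET2 KO (-6.07 ± 0.36). MAEL, a factor of the germline piRNA pathway, was at 10.6 ± 0.422 CPM in WT and 0.314 ± 0.272 CPM in TET2 KO (-5.02 ± 0.51). LINC00334 (-5.53 ± 0.23) completed the 14 largest decreases given here, whose log2 differences ran from -9.07 to -5.02, and DOCK10, ROBO1, LRFN5 and MAEL overlap another gene on their strand.

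All 14 were also called lower in TET2 KO under shControl, and 8 differed between the pairs. DOCK10 stood at 2.9 ± 0.40 CPM in WT and 0.319 ± 0.146 CPM in TET2 KO under shControl, so that its decrease was larger under shMBD6 by -4.04 on the log2 scale (adjusted p = 8.96e-08), and TMEM163 stood at 132 ± 1.2 CPM in WT and 16.3 ± 1.36 CPM in TET2 KO (-2.32, adjusted p = 1.69e-23). PTPRC stood at 94.6 ± 2.6 CPM in WT and 0.0926 ± 0.0355 CPM in TET2 KO, and its difference between the pairs was 0.84 (adjusted p = 0.112).

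**Figure D2:**
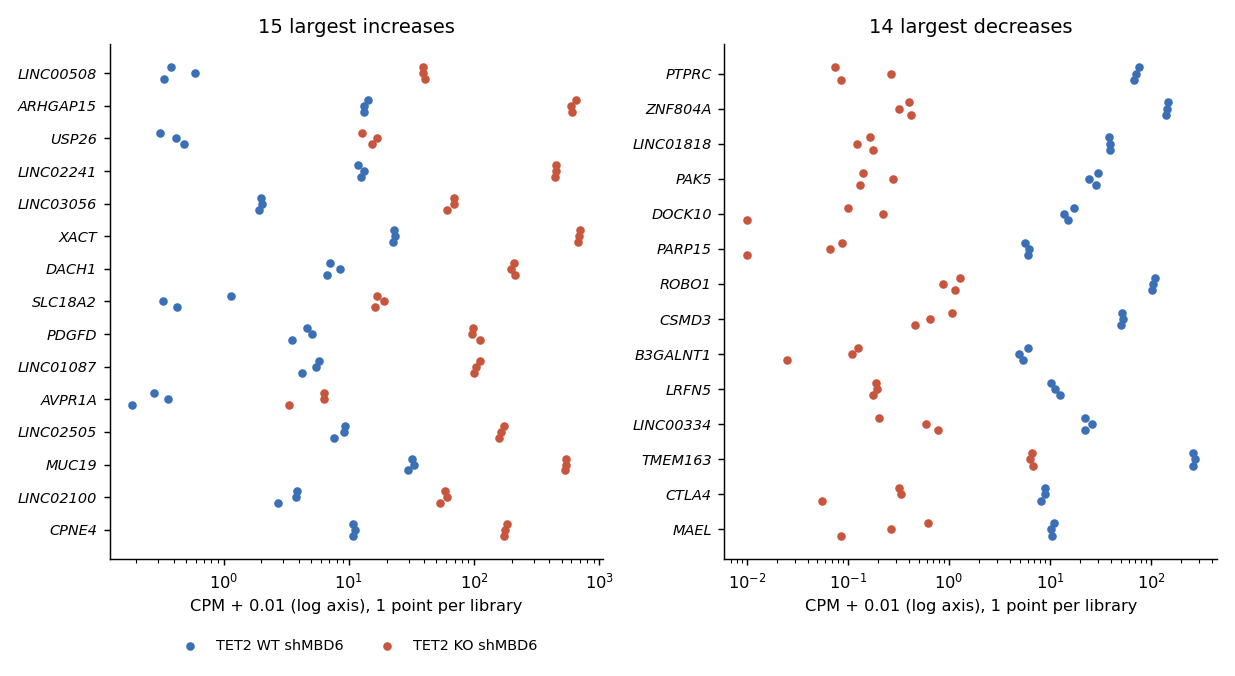
Each point is 1 library, with CPM plus 0.01 on a log axis, for the 15 genes with the largest increase and the 14 with the largest decrease in TET2 KO among the libraries labelled shMBD6. Within each gene the 3 WT points and the 3 TET2 KO points do not overlap, and ARHGAP15 and XACT reach 598 to 708 CPM in TET2 KO.

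The promoters of the first of these genes are shown because cytosine methylation, the substrate of TET2, sits at CG dinucleotides, printed here in capitals. Each runs from 250 bases before to 50 bases after the RefSeq start on GRCh38.p14, on the plus strand: ARHGAP15 and LINC02241 among the increases, PTPRC and ZNF804A among the decreases. They are the first in each direction with an entry, which LINC00508 and USP26 lack. The ARHGAP15 sequence (chr2:143129169-143129468) lies inside the annotated gene, downstream of its first start, as does that of PTPRC, and it holds 4 CG, and LINC02241 (chr5:20611590-20611889) holds 4. PTPRC (chr1:198638790-198639089) holds 1 and ZNF804A (chr2:184598279-184598578) holds 36.
ARHGAP15: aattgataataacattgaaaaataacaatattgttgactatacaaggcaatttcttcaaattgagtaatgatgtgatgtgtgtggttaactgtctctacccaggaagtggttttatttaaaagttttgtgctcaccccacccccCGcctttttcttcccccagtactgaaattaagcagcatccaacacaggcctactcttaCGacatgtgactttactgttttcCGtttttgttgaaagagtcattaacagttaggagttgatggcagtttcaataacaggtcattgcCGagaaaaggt
LINC02241: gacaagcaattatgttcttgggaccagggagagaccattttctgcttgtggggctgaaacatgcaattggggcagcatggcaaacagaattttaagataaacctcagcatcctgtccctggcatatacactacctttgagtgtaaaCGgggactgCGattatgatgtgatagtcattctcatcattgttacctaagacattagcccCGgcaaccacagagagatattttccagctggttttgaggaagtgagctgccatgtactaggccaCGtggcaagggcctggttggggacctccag
PTPRC: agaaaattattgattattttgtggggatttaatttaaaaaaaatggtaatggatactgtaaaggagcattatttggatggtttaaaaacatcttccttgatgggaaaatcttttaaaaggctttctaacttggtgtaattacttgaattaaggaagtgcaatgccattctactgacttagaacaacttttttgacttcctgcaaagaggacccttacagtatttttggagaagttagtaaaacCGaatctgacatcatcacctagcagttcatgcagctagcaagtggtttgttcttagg
ZNF804A: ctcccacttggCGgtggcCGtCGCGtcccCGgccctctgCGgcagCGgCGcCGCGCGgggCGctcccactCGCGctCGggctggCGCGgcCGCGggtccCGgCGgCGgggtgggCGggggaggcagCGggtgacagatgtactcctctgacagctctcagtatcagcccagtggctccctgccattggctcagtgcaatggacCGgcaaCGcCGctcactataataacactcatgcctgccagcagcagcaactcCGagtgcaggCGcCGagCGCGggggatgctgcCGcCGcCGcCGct
Genes switched between the genotypes thus had both CG-poor and CG-rich starts. Over 15116 tested genes with an entry, the median promoter held 23 CG and 75.2% held 10 or more. Among strongly covered genes the median was 27, and it was 23 for the 263 of them called at least 2-fold higher and 15 for the 37 called at least 2-fold lower. Weakly covered genes called at least 2-fold lower had a median of 10 CG over 2961 promoters, and 51.2% of them held 10 or more, against a median of 19 and 68.8% for the 394 called at least 2-fold higher. The filter could admit these weakly covered genes through the group where they were higher. CG was not counted over all weakly covered genes, so these medians cannot set called genes apart from weakly covered ones. Methylation was not measured in these libraries.

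The genes with the largest change in CPM were mostly others. The increases were led by NBAS, a factor of vesicle transport, at 2233 ± 59.8 CPM in WT and 3168 ± 62.3 CPM in TET2 KO (log2 difference 0.51, SE 0.02, adjusted p = 2.61e-20). SND1, a Tudor-domain nuclease, was at 2156 ± 12.4 CPM in WT and 3056 ± 44.1 CPM in TET2 KO (0.50 ± 0.02). SMYD3, a lysine methyltransferase, was at 2027 ± 16.2 CPM in WT and 2891 ± 40.3 CPM in TET2 KO (0.51 ± 0.02). LINC00534 was at 1497 ± 30.4 CPM in WT and 2339 ± 47.3 CPM in TET2 KO (0.64 ± 0.02). CCDC26, a noncoding RNA of a leukaemia-associated region, was at 3665 ± 61.6 CPM in WT and 4247 ± 38.2 CPM in TET2 KO (0.21 ± 0.02), and CCDC26 turned to -0.04 (adjusted p = 0.046) when strongly covered genes were scaled on themselves. These 5 genes overlap others on their strand. The 10 Mb windows that hold them had median log2 differences, over genes of 8 CPM or more, of 0.28 for NBAS and 0.53 for SND1. For SMYD3, LINC00534 and CCDC26 they were 0.60, 0.74 and 0.76. XACT, ARHGAP15 and MUC19 were the remaining 3.

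Among the decreases, PARD3B, a cell-polarity gene, was read at 1495, 1563 and 1554 CPM in the WT libraries and 348, 354 and 360.2 CPM in the TET2 KO libraries (log2 difference -2.12, SE 0.03, adjusted p = 1.08e-34). TENM1, a teneurin adhesion protein, was at 955 ± 12.5 CPM in WT and 286 ± 8.41 CPM in TET2 KO (-1.74 ± 0.03). PLCL1, a phospholipase-like protein, was at 1546 ± 27.6 CPM in WT and 729 ± 9.74 CPM in TET2 KO (-1.08 ± 0.02). FGF13 was at 2320 ± 45.9 CPM in WT and 1147 ± 18.2 CPM in TET2 KO (-1.01 ± 0.02). MGC4859 was at 1917 ± 39.8 CPM in WT and 959 ± 21.3 CPM in TET2 KO (-0.998 ± 0.02). ST6GAL1, which adds sialic acid to glycoproteins, was at 1167 ± 15.8 CPM in WT and 637 ± 9.97 CPM in TET2 KO (-0.87 ± 0.02). FGF13 and TENM1 overlap another gene on their strand.

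A pair of abundant nuclear noncoding RNAs completed the set. NEAT1, the scaffold of paraspeckles, was read at 2131, 2084 and 2096 CPM in the WT libraries and 1307, 1338 and 1341 CPM in the TET2 KO libraries (log2 difference -0.66, SE 0.02, adjusted p = 3.73e-23). MALAT1, of nuclear speckles, was read at 17102, 17392 and 17507 CPM in the WT libraries and 16462, 16370 and 17088 CPM in the TET2 KO libraries, a difference of -0.06 ± 0.02 (adjusted p = 0.00542) that was lost without TET2 KO replicate 1 (adjusted p = 0.0626) or without TET2 KO replicate 2 (0.0822), although the groups did not overlap. Both overlap shorter annotated genes on their strand.

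Under shControl these 8 decreases were less uniform. FGF13, MGC4859 and TENM1 were also lower, PLCL1, ST6GAL1 and MALAT1 were higher, and PARD3B and NEAT1 were not called, with log2 differences of 0.02 (adjusted p = 0.556) and 0.01 (adjusted p = 0.711). All 8 were called for the difference between the pairs, which was -2.14 for PARD3B and -0.67 for NEAT1.

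Over all genes, the shControl pair called 11921 (45.8%), and 12852 (49.4%) were called for the difference between the pairs, 6225 with a more positive and 6627 with a more negative value under shMBD6. In both pairs 4604 genes were called in the same direction, 30.2% of the calls under shMBD6 and 38.6% of those under shControl, and 4145 in opposite directions. Strongly covered genes gave 1982 in the same direction, 28.7% and 32.1% of the calls, and 2920 in opposite directions. Of the 128 strongly covered genes that differed at least 4-fold under shMBD6, 87 (68.0%) were called in the same direction under shControl and 7 in the opposite one. On the scale of all genes, same-direction calls thus outnumbered opposite ones among the large differences, and did not over all strongly covered genes. These directions were not counted with strongly covered genes scaled on themselves. There, positive values were 50.8% of their calls for the difference between the pairs, against 71.6% with the factors of all genes.

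Of genes called for the difference between the pairs and also under shMBD6, those furthest apart had opposite genotype differences in each pair. Genes not called under shMBD6 were left out of this choice. TUBB1, the tubulin of platelets, was read at 1.7, 1.94 and 2.77 CPM in the WT libraries and 5.83, 2.96 and 3.52 CPM in the TET2 KO libraries (log2 difference 0.94, SE 0.24, adjusted p = 0.00151) but under shControl at 14.5, 12.01 and 12.7 CPM in WT and 0.262, 0.679 and 0.658 CPM in TET2 KO. RPS6KL1 was read at 6.47, 3.51 and 4.62 CPM in the WT libraries and 18.6, 11.8 and 14.2 CPM in the TET2 KO libraries (log2 difference 1.59, SE 0.17, adjusted p = 7.53e-10) and under shControl at 14.7 ± 0.648 CPM in WT and 3.89 ± 0.522 CPM in TET2 KO. SGMS1-AS1, an antisense RNA, was at 4.16 ± 0.56 CPM in WT and 13.8 ± 1.84 CPM in TET2 KO (1.73 ± 0.14) and under shControl at 13.2 ± 1.35 CPM in WT and 5.27 ± 0.0936 CPM in TET2 KO. NT5DC4 was at 2.44 ± 0.341 CPM in WT and 4.99 ± 2.18 CPM in TET2 KO (1.02 ± 0.20). AREG, a ligand of the EGF receptor, was at 3.63 ± 0.0599 CPM in WT and 5.85 ± 1.66 CPM in TET2 KO (0.69 ± 0.19), and both were lower in TET2 KO under shControl (-4.28 and -2.44).

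The calls of the other 3 were unsteady under shMBD6 alone. HBG1, a fetal globin whose near-identical copy HBG2 had no counts, was read at 1.71, 1.69 and 1.83 CPM in the WT libraries and 4.28, 2.12 and 1.91 CPM in the TET2 KO libraries (0.66 ± 0.26), of which 0.21 (adjusted p = 0.467) was left without TET2 KO replicate 1. Its call was also lost without WT replicate 1 (adjusted p = 0.063) or WT replicate 2 (0.0633). ST8SIA1, the GD3 ganglioside synthase, was at 3.73 ± 0.355 CPM in WT and 5.83 ± 2.42 CPM in TET2 KO (0.64 ± 0.24), and without TET2 KO replicate 1 the difference was 0.35 (adjusted p = 0.204). Leaving out WT replicate 2 (adjusted p = 0.0793), WT replicate 3 (0.0639) or TET2 KO replicate 2 (0.0756) ended the call of ST8SIA1 too. C17orf99 was at 15.9 ± 0.45 CPM in WT and 18.3 ± 1.76 CPM in TET2 KO (0.20 ± 0.07), and the difference was -0.05 (adjusted p = 0.626) with strongly covered genes scaled on themselves. Its call was lost without WT replicate 3 (adjusted p = 0.0649), TET2 KO replicate 1 (0.0667) or TET2 KO replicate 2 (0.0719). All 3 overlap another gene on their strand, and their shControl values, with log2 differences of -2.75, -2.55 and -4.05, make most of their distance between the pairs.

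In the other direction, NRP1, a co-receptor for semaphorins and VEGF, was read at 3.01, 2.87 and 4.5 CPM in the WT libraries and 0.122, 0.442 and 0.74 CPM in the TET2 KO libraries (log2 difference -2.97, SE 0.35, adjusted p = 8.71e-09) and under shControl at 0.775 ± 0.228 CPM in WT and 6.65 ± 1.03 CPM in TET2 KO. LRAT, which esterifies retinol, was read at 9.79, 10.3 and 11.7 CPM in the WT libraries and 1.13, 0.513 and 0.896 CPM in the TET2 KO libraries (log2 difference -3.65, SE 0.22, adjusted p = 1.27e-15) and under shControl at 2.12 ± 0.311 CPM in WT and 6.23 ± 0.544 CPM in TET2 KO. MS4A4E was at 33.3 ± 0.508 CPM in WT and 10.2 ± 0.887 CPM in TET2 KO (-1.71 ± 0.08). TCN1, the vitamin B12 carrier haptocorrin, was at 6.68 ± 0.927 CPM in WT and 3.68 ± 0.756 CPM in TET2 KO (-0.85 ± 0.16). Both were higher in TET2 KO under shControl, by 4.17 and 4.98 on the log2 scale. OOSP4B (-0.97 ± 0.13), OLAH (-2.58 ± 0.25), LINC02948 (-1.59 ± 0.25) and LINC01121 (-2.86 ± 0.42) were also lower under shMBD6 and higher under shControl. NRP1, MS4A4E and LRAT overlap another gene on their strand.

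**Figure D3:**
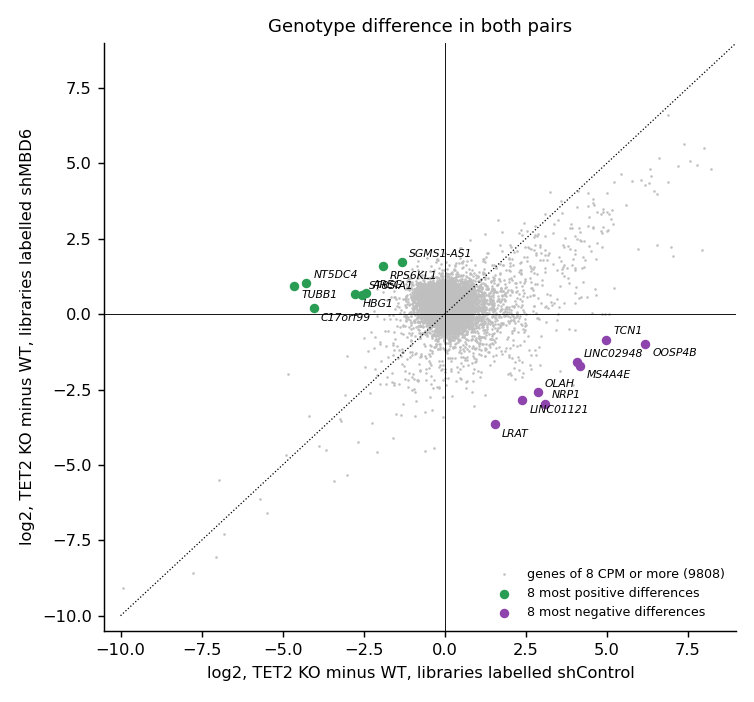
Grey points are the 9808 genes of 8 CPM or more, with the log2 difference, TET2 KO minus WT, among libraries labelled shControl on the horizontal axis and among those labelled shMBD6 on the vertical axis, and the dotted line marks equal differences. Coloured genes were chosen among those also called under shMBD6. The 8 with the most positive difference between the pairs (green) lie at upper left, from TUBB1 to SGMS1-AS1. The 8 with the most negative (purple) lie at lower right, from OOSP4B to LRAT.

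The gene lists were read by their roles, starting with the erythroid programme of K562. Enzymes and carriers of haem synthesis were mostly higher, with 11 of 13 called higher, 1 lower and a median of 0.38. Over all genes the median was -0.03, and over strongly covered genes, which all 13 were, it was 0.29. When strongly covered genes were scaled on themselves, called the second scale here and written as higher and lower of the strongly covered members, they were 7 and 1 of 13. Under shControl 3 were higher and 9 lower (median -0.49), and 11 were called for the difference between the pairs. UROD, uroporphyrinogen decarboxylase, was read at 42.2, 38.4 and 36.5 CPM in the WT libraries and 78.5, 80.4 and 74.2 CPM in the TET2 KO libraries (log2 difference 0.99, SE 0.05, adjusted p = 6.61e-17). SLC25A38, the mitochondrial glycine carrier of the pathway, was read at 23.3, 21.3 and 22.3 CPM in the WT libraries and 39.5, 38.8 and 37.4 CPM in the TET2 KO libraries (0.79 ± 0.07). ALAS2, the rate-limiting erythroid enzyme, went the other way, at 38.5, 37.9 and 35.6 CPM in the WT libraries and 21.7, 20.4 and 23.7 CPM in the TET2 KO libraries (log2 difference -0.77, SE 0.07, adjusted p = 3.47e-11).

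Iron genes were split. Of 12, 6 were higher and 2 lower (median 0.30; 6 and 4 of 11 on the second scale). SLC40A1, the iron exporter ferroportin, was at 25.0 ± 1.58 CPM in WT and 56.2 ± 1.72 CPM in TET2 KO (1.17 ± 0.06). TFR2, a sensor of transferrin, was at 64.8 ± 4.44 CPM in WT and 140.3 ± 1.68 CPM in TET2 KO (1.11 ± 0.04). STEAP3, the ferrireductase of endosomes, was at 24.5 ± 0.479 CPM in WT and 52.8 ± 2.1 CPM in TET2 KO (1.11 ± 0.06). TFRC, the transferrin receptor, was at 356 ± 4.51 CPM in WT and 470.2 ± 4.2 CPM in TET2 KO (0.40 ± 0.03). SLC25A37, the mitochondrial iron importer, was lower at 292 ± 7.82 CPM in WT and 206 ± 6.11 CPM in TET2 KO (-0.51 ± 0.03), as was FTL, the ferritin light chain, at 25.1 ± 1.32 CPM in WT and 18 ± 2.67 CPM in TET2 KO (-0.48 ± 0.10).

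Genes of the red-cell membrane went both ways, 6 of 19 higher and 6 lower, with a median of 0.03 that was -0.26 on the second scale (3 and 7 of 12), -0.09 with DESeq2's size factors and -0.04 without WT replicate 1. Under shControl 1 was higher and 15 lower (median -0.99). The spectrin gene SPTB was higher, at 86.7 ± 1.25 CPM in WT and 163 ± 4.04 CPM in TET2 KO (0.91 ± 0.04), as was the adducin gene ADD2, at 42.5 ± 1.2 CPM in WT and 104 ± 6.01 CPM in TET2 KO (1.28 ± 0.05). EPB41, which ties spectrin to the membrane, was lower at 1350 ± 4.1 CPM in WT and 1095 ± 17.1 CPM in TET2 KO (-0.30 ± 0.02). DMTN, dematin, was at 28.8 ± 0.30 CPM in WT and 11.1 ± 0.972 CPM in TET2 KO (-1.37 ± 0.09). SLC4A1, the band 3 anion exchanger, was at 8.38 ± 0.24 CPM in WT and 1.35 ± 0.721 CPM in TET2 KO (-2.65 ± 0.26). Globins had few counts, with 2 of 8 higher and 2 lower (median -1.77, and 0 and 0 of 2 on the second scale). Reads that were ambiguous or not unique were left out, and their part in the globin counts was not tested. In WT, HBA1 was read at 0.529, 0.582 and 0.554 CPM and HBA2 at 0.715, 0.37 and 0.639 CPM, and in TET2 KO at 0.0457, 0.328 and 0.0519 CPM and 0.0457, 0.157 and 0.0519 CPM. The call of HBA1 (-1.96 ± 0.74) was lost without WT replicate 2 (adjusted p = 0.0528), TET2 KO replicate 1 (0.0713) or TET2 KO replicate 3 (0.0895). SPTB and EPB41 overlap another gene on their strand, and HBA1 and HBA2 are near-identical copies.

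Haematopoietic transcription factors were 13 of 27 higher and 10 lower, with a median of 0.11 that became -0.01 with DESeq2's size factors, -0.03 with total gene counts and -0.02 over strongly covered genes scaled on themselves (4 and 7 of 18). Under shControl 9 were higher and 16 lower (median -0.52). GATA1, the master factor of red-cell genes, was read at 38.4, 33.2 and 34.1 CPM in the WT libraries and 46.3, 45.1 and 47.8 CPM in the TET2 KO libraries (log2 difference 0.39, SE 0.06, adjusted p = 3.42e-06; 0.14, adjusted p = 0.0514 on the second scale). GFI1B, a repressor of the same lineage, was at 27.4 ± 1.95 CPM in WT and 40.5 ± 3.77 CPM in TET2 KO (0.56 ± 0.07). LDB1, the cofactor that joins GATA1 complexes, was at 81.3 ± 6.18 CPM in WT and 109.7 ± 1.38 CPM in TET2 KO (0.43 ± 0.05). TAL1 was lower, at 133, 124 and 122 CPM in the WT libraries and 108, 114 and 108 CPM in the TET2 KO libraries (log2 difference -0.20, SE 0.04, adjusted p = 8.02e-05). BCL11A, the repressor of fetal globin, and ERG were low in WT and lower in TET2 KO (-3.63 ± 0.50 and -2.62 ± 0.24).

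Of 12 megakaryocyte genes tested, 3 were higher and 5 lower (median -0.41; 1 and 3 of 4). ITGA2B, the platelet integrin subunit, was at 40.8 ± 3.14 CPM in WT and 25.8 ± 3.08 CPM in TET2 KO (-0.66 ± 0.08). VWF, von Willebrand factor, was at 2.01 ± 0.319 CPM in WT and 0.0354 ± 0.0487 CPM in TET2 KO (-5.70 ± 0.72). NBEAL2, a gene of platelet granules, was at 327 ± 22.4 CPM in WT and 306 ± 12.9 CPM in TET2 KO, with a log2 difference of -0.10 that was not called (adjusted p = 0.0713) and was called at -0.35 on the second scale (adjusted p = 4.11e-05).

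Lists of other blood lineages had medians below 0 in the fit of all 12 libraries, as had weakly covered genes (-0.79, 38.3% lower) and olfactory receptors (-1.12). Granulocyte and monocyte genes were 2 of 15 higher and 6 lower (median -1.14, but 0.08 over those kept in a fit of the 6 libraries alone; 0 and 1 of 2 strongly covered), lymphocyte genes 1 of 18 higher and 9 lower (median -0.87, none strongly covered), and leukocyte surface genes 7 of 27 higher and 13 lower (median -0.54; 4 and 3 of 7). FCGR2A, an Fc receptor, was at 25.2 ± 0.856 CPM in WT and 11.5 ± 1.01 CPM in TET2 KO (-1.14 ± 0.10). CSF1R, the macrophage growth factor receptor, was at 1.11 ± 0.323 CPM in WT and 0.057 ± 0.0987 CPM in TET2 KO (-4.25 ± 0.93). NCAM1 was at 4.65 ± 0.608 CPM in WT and 0.68 ± 0.208 CPM in TET2 KO (-2.77 ± 0.29). CD247, the zeta chain of the T-cell receptor, was at 7.32 ± 0.584 CPM in WT and 3.72 ± 0.222 CPM in TET2 KO (-0.98 ± 0.16), which under shControl was higher in TET2 KO (2.13).

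A few other surface genes are given by their values. CD53, a tetraspanin, was at 60.8 ± 1.21 CPM in WT and 81.6 ± 2.23 CPM in TET2 KO (0.42 ± 0.05). ITGB1, the common beta integrin, was at 143 ± 5.65 CPM in WT and 192 ± 11.5 CPM in TET2 KO (0.42 ± 0.04). CD33, a sialic-acid-binding receptor, was at 26.1 ± 1.02 CPM in WT and 33.7 ± 1.46 CPM in TET2 KO (0.36 ± 0.07). CSF3R, the receptor for G-CSF, was at 5.22 ± 0.758 CPM in WT and 7.22 ± 1.21 CPM in TET2 KO (0.47 ± 0.16), and its call was lost without WT replicate 3 (adjusted p = 0.0946) or TET2 KO replicate 3 (0.0917). THY1 had no count in the TET2 KO libraries and 0.124, 0.476 and 0.384 CPM in WT, which makes it at least 25.7-fold lower with 3 counts set over the group, but its mean over the 6 libraries was 0.0172 CPM per kb, under the olfactory-receptor level. VWF, ERG, GFI1B, FCGR2A, NCAM1 and CD247 overlap another gene on their strand.

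**Figure D4:**
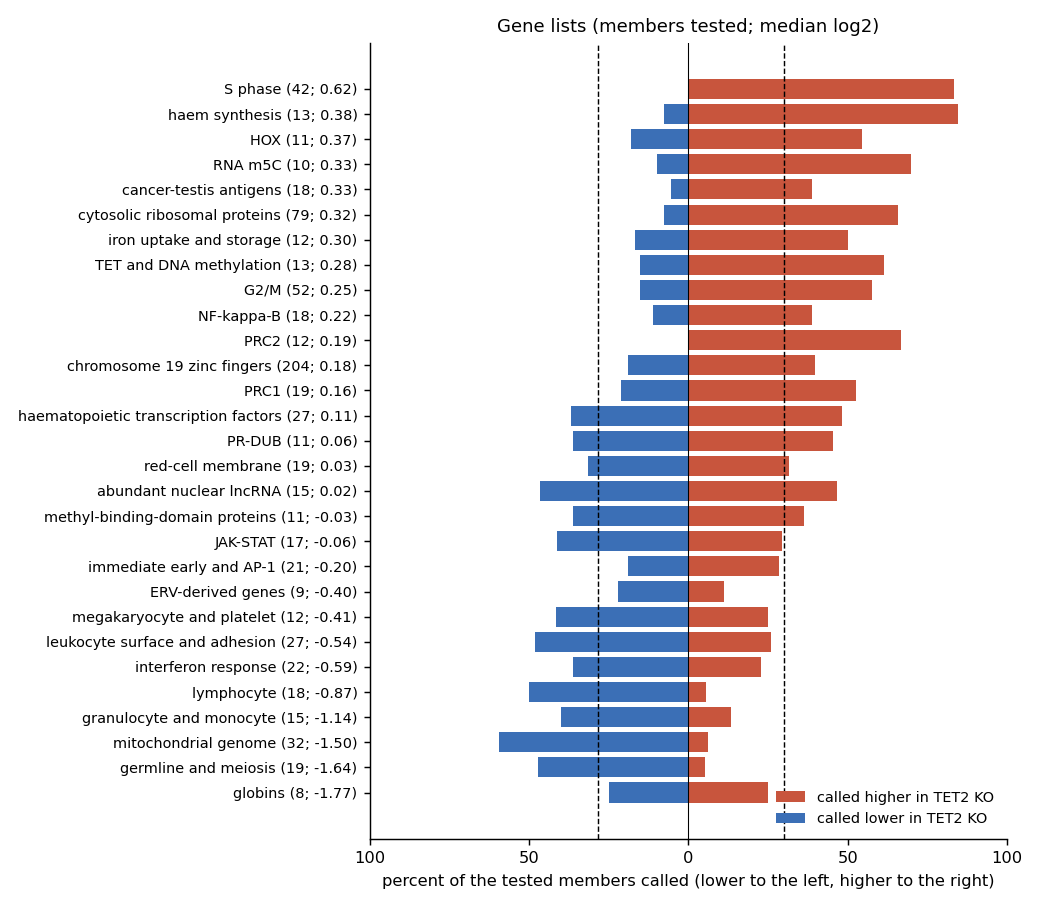
Each row is a gene list, with the number of tested members and their median log2 difference in brackets, and bars give the percent of members called lower (left) and higher (right) in TET2 KO among libraries labelled shMBD6. Dashed lines mark the shares of all genes, 28.5% and 30.1%. Strongly covered genes, which make up most of some lists, were 11.8% lower and 60.3% higher. S-phase genes have 35 of 42 higher and none lower, and genes of the mitochondrial genome 2 of 32 higher and 19 lower.

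The enzymes that write and remove cytosine methylation in DNA were 8 of 13 higher and 2 lower (median 0.28; 6 and 3 of 11 on the second scale), close to the 60.3% and 0.29 of strongly covered genes. TET1, a paralogue of TET2, was read at 186, 189 and 189.7 CPM in the WT libraries and 285, 273 and 279 CPM in the TET2 KO libraries (log2 difference 0.57, SE 0.03, adjusted p = 4.79e-17). TDG, the glycosylase that removes oxidised cytosines, was at 43.4 ± 1.85 CPM in WT and 63.0 ± 3.3 CPM in TET2 KO (0.54 ± 0.06), and IDH1 and IDH2, which make the TET cofactor 2-oxoglutarate, were at 123 ± 1.66 CPM in WT and 182 ± 5.33 CPM in TET2 KO (0.57 ± 0.03) and 19.3 ± 0.719 CPM in WT and 33.2 ± 1.37 CPM in TET2 KO (0.79 ± 0.07). DNMT1, the maintenance methyltransferase, was at 204 ± 4.87 CPM in WT and 236 ± 3.08 CPM in TET2 KO (0.21 ± 0.03), which turned to -0.04 (adjusted p = 0.225) on the second scale. TET1 under shControl differed by 0.57 (adjusted p = 2.32e-17), so its difference between the pairs was -0.01 (adjusted p = 0.92). TET1, TDG and DNMT1 overlap another gene on their strand.

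Genes of 5-methylcytosine in RNA were 7 of 10 higher and 1 lower (median 0.33; 4 and 2 of 9), near the same background. NSUN2, the methyltransferase of many noncoding RNAs, was read at 87.6, 89.1 and 84.5 CPM in the WT libraries and 125, 125 and 132 CPM in the TET2 KO libraries (log2 difference 0.55, SE 0.04, adjusted p = 9.51e-14). The reader ALYREF, an export factor, was at 8.3 ± 0.503 CPM in WT and 13.7 ± 0.867 CPM in TET2 KO (0.72 ± 0.11) and the reader YBX1 at 118 ± 4.12 CPM in WT and 153 ± 6.32 CPM in TET2 KO (0.38 ± 0.04). NSUN7 was lower at 1.97 ± 0.221 CPM in WT and 0.737 ± 0.332 CPM in TET2 KO (-1.42 ± 0.37). PSPC1, a paraspeckle protein, was at 202 ± 6.9 CPM in WT and 196 ± 5.52 CPM in TET2 KO and not called (-0.04, adjusted p = 0.326), but it was -0.29 (adjusted p = 1.04e-09) on the second scale. NSUN7 and PSPC1 overlap another gene on their strand.

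The methyl-binding-domain family had 4 of 11 higher and 4 lower (median -0.03, and 0.05 without TET2 KO replicate 1; 1 and 6 of 10, median -0.29). MBD5, the closest relative of MBD6 and also a partner of PR-DUB, was read at 292, 304 and 306 CPM in the WT libraries and 226, 233 and 238 CPM in the TET2 KO libraries (log2 difference -0.37, SE 0.03, adjusted p = 8.27e-12), and under shControl it was higher in TET2 KO (1.14, adjusted p = 6.33e-25). MBD1 was higher at 52.5 ± 0.842 CPM in WT and 65.3 ± 3.85 CPM in TET2 KO (0.31 ± 0.05; 0.06, adjusted p = 0.274 on the second scale), as was SETDB2 at 30.0 ± 0.601 CPM in WT and 39.7 ± 0.13 CPM in TET2 KO (0.41 ± 0.06). MBD5 and SETDB2 overlap another gene on their strand.

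The PR-DUB list was 5 of 11 higher and 4 lower, with a median of 0.06 that was -0.16 over strongly covered genes scaled on themselves (2 and 6 of 10), -0.05 and -0.08 with DESeq2's size factors and total gene counts. BAP1, its ubiquitin hydrolase, was read at 20.7, 18.7 and 19.3 CPM in the WT libraries and 34.1, 29.4 and 29.3 CPM in the TET2 KO libraries (log2 difference 0.66, SE 0.08, adjusted p = 4.68e-08). OGT, the O-GlcNAc transferase, was at 960.2 ± 1.78 CPM in WT and 1388 ± 22.1 CPM in TET2 KO (0.53 ± 0.02). ASXL1, the scaffold that activates BAP1, was at 209 ± 5.58 CPM in WT and 240.1 ± 5.68 CPM in TET2 KO (0.20 ± 0.03), which turned to -0.05 (adjusted p = 0.147) on the second scale. HCFC1, a chromatin cofactor, was lower at 109.5 ± 6.89 CPM in WT and 75.4 ± 3.88 CPM in TET2 KO (-0.54 ± 0.05). ASXL3, hardly read, was at 1.81 ± 0.464 CPM in WT and 0.0372 ± 0.0438 CPM in TET2 KO (-5.53 ± 0.79).

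PRC1 genes were 10 of 19 higher and 4 lower (median 0.16; 4 and 7 of 14, median -0.06). CBX6, a chromodomain subunit, was at 16.7 ± 0.586 CPM in WT and 30.1 ± 1.34 CPM in TET2 KO (0.85 ± 0.10). PCGF1, of the variant complex, was at 2.75 ± 0.891 CPM in WT and 4.79 ± 0.426 CPM in TET2 KO (0.79 ± 0.21). PCGF5, of another variant complex, was lower at 95.3 ± 6.26 CPM in WT and 60.9 ± 4.32 CPM in TET2 KO (-0.65 ± 0.05), as was RYBP at 318 ± 14.7 CPM in WT and 286 ± 3.12 CPM in TET2 KO (-0.15 ± 0.03). PRC2, which methylates histone H3, had 8 of 12 higher and 0 lower (median 0.19), but 2 and 4 of 11 on the second scale (median -0.05). EZH1 was at 67.3 ± 0.664 CPM in WT and 99.6 ± 3.52 CPM in TET2 KO (0.56 ± 0.04). RBBP4, a histone-binding subunit, was at 159 ± 3.25 CPM in WT and 217 ± 4.04 CPM in TET2 KO (0.45 ± 0.03), while EZH2, the main methyltransferase, was at 511 ± 9.78 CPM in WT and 572 ± 5.27 CPM in TET2 KO (0.16 ± 0.02) and turned to -0.09 (adjusted p = 0.00129) on the second scale. EZH1 overlaps another gene on its strand.

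Signalling lists were mixed. JAK-STAT genes, which carry the erythropoietin signal, were 5 of 17 higher and 7 lower (median -0.06, and 0.01 without TET2 KO replicate 3), and 1 and 11 of 14 on the second scale (median -0.27). STAT5A, a target of BCR-ABL1 signalling, was at 114 ± 3.41 CPM in WT and 172 ± 3.13 CPM in TET2 KO (0.60 ± 0.03), while the feedback genes SOCS3 and CISH were lower, at 13.2 ± 1.36 CPM in WT and 7.21 ± 0.565 CPM in TET2 KO (-0.87 ± 0.12) and 56.4 ± 3.27 CPM in WT and 40.7 ± 3.54 CPM in TET2 KO (-0.47 ± 0.07). BCL2L1, the survival gene downstream of STAT5, was lower at 516 ± 10.1 CPM in WT and 442 ± 14.1 CPM in TET2 KO (-0.22 ± 0.03). NF-kappa-B genes were 7 of 18 higher and 2 lower (median 0.22; 1 and 2 of 12). NFKB1 was at 38.1 ± 1.62 CPM in WT and 59.9 ± 2.41 CPM in TET2 KO (0.65 ± 0.05). TNFAIP3, its feedback inhibitor, was at 51.9 ± 2.67 CPM in WT and 66.9 ± 4.8 CPM in TET2 KO (0.37 ± 0.06; 0.12, adjusted p = 0.099 on the second scale). RELB was at 2.19 ± 0.245 CPM in WT and 1.0 ± 0.339 CPM in TET2 KO (-1.12 ± 0.33).

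Immediate early genes were 6 of 21 higher and 4 lower (median -0.20, but 0.19 over the 11 strongly covered; 3 and 2 of 11 on the second scale). ATF3 was at 35.8 ± 1.61 CPM in WT and 52.1 ± 1.89 CPM in TET2 KO (0.54 ± 0.06). EGR2 was at 1.54 ± 0.329 CPM in WT and 0.0707 ± 0.087 CPM in TET2 KO (-4.42 ± 0.63). Interferon-response genes, mostly weakly covered, were 5 of 22 higher and 8 lower (median -0.59; 0 and 2 of 2), beside 38.3% lower and a median of -0.79 for weakly covered genes. ISG20, an RNA exonuclease, was at 3.1 ± 0.358 CPM in WT and 7.16 ± 0.653 CPM in TET2 KO (1.21 ± 0.17). IRF1 was at 14.6 ± 2.09 CPM in WT and 20.4 ± 0.871 CPM in TET2 KO (0.48 ± 0.10). IFIH1, the sensor MDA5 of double-stranded RNA, was lower at 2.05 ± 0.307 CPM in WT and 0.539 ± 0.0746 CPM in TET2 KO (-1.93 ± 0.36), and it was higher in TET2 KO under shControl (1.30). EGR2 overlaps another gene on its strand.

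S-phase genes moved mainly one way. Of the 42 tested, 35 were strongly covered. Strongly covered genes as a whole were 60.3% higher and 11.8% lower (median 0.29), and on the second scale 3268 and 2834 of 9591 (median 0.04). Of the 42 S-phase genes, 35 were higher and none lower (median 0.62), and 25 were higher and 4 lower of 35 on the second scale (median 0.38). Under shControl 11 were higher and 20 lower (median -0.09), and 34 were called for the difference between the pairs. TIPIN, of the replication fork, was read at 11.6, 10.8 and 11.7 CPM in the WT libraries and 37.2, 31.6 and 37.5 CPM in the TET2 KO libraries (log2 difference 1.64, SE 0.10, adjusted p = 1.06e-15). WDR76 was read at 54.5, 61.0 and 58.4 CPM in the WT libraries and 135, 129.7 and 128 CPM in the TET2 KO libraries (log2 difference 1.18, SE 0.05, adjusted p = 4.2e-20). ATAD2, a bromodomain ATPase, was at 174 ± 3.63 CPM in WT and 346 ± 13.8 CPM in TET2 KO (0.99 ± 0.03). CDC6, which loads the replicative helicase, was at 44.9 ± 1.62 CPM in WT and 81.7 ± 1.39 CPM in TET2 KO (0.86 ± 0.05). MCM4, a helicase subunit, was at 69.9 ± 4.21 CPM in WT and 113 ± 3.1 CPM in TET2 KO (0.69 ± 0.05). TIPIN and WDR76 lie on chromosome 15 and ATAD2 and MCM4 on chromosome 8, and TIPIN and ATAD2 overlap another gene on their strand.

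Genes of G2 and mitosis were 30 of 52 higher and 8 lower (median 0.25), close to the 60.3% and 0.29 of strongly covered genes, and 17 and 20 of 49 on the second scale (median 0.01). Under shControl 5 were higher and 30 lower (median -0.17). CCNB2, a mitotic cyclin, was at 19.03 ± 1.77 CPM in WT and 36.2 ± 2.78 CPM in TET2 KO (0.93 ± 0.08). LBR, the lamin B receptor, was at 124 ± 4.48 CPM in WT and 212 ± 6.48 CPM in TET2 KO (0.77 ± 0.04). TOP2A, the mitotic topoisomerase, was at 143 ± 3.5 CPM in WT and 192 ± 3.84 CPM in TET2 KO (0.43 ± 0.03). HMGB2 was lower at 69.7 ± 2.17 CPM in WT and 48.6 ± 6.4 CPM in TET2 KO (-0.52 ± 0.06). CCNB2 and TOP2A overlap another gene on their strand.

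Cytosolic ribosomal protein genes were 52 of 79 higher and 6 lower (median 0.32), near the same background, and 27 and 16 of 73 on the second scale (median 0.07). Under shControl 16 were higher and 34 lower (median -0.13). RPL4 was at 26.8 ± 1.25 CPM in WT and 54.4 ± 3.93 CPM in TET2 KO (1.02 ± 0.07). RPL7 was at 9.92 ± 0.394 CPM in WT and 19.9 ± 0.988 CPM in TET2 KO (1.00 ± 0.09). RPL34 was at 28.2 ± 2.22 CPM in WT and 54.6 ± 0.646 CPM in TET2 KO (0.96 ± 0.06). RPLP0 was at 38.1 ± 3.37 CPM in WT and 58.5 ± 1.27 CPM in TET2 KO (0.62 ± 0.06). Reads of these genes could be split with their many pseudogenes, and RPL4 overlaps small RNA genes. Abundant nuclear noncoding RNAs were 7 of 15 higher and 7 lower, with a median of 0.02 that was -0.08 on the second scale (4 and 5 of 11), -0.10 with DESeq2's size factors and -0.12 with total gene counts. GAS5 and SNHG1, hosts of small nucleolar RNAs, were at 60.9 ± 2.14 CPM in WT and 92.6 ± 1.17 CPM in TET2 KO (0.60 ± 0.05) and 40.5 ± 1.15 CPM in WT and 77.5 ± 2.89 CPM in TET2 KO (0.94 ± 0.06).

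Genes of the mitochondrial genome went down. Of 32, 2 were higher and 19 lower (median -1.50), and 0 and 24 on the second scale (median -1.75). MT-ND1 was read at 29.2, 31.9 and 32.3 CPM in the WT libraries and 15.6, 15.8 and 11.3 CPM in the TET2 KO libraries (log2 difference -1.13, SE 0.10, adjusted p = 4.47e-12). MT-ND4 was at 52.4 ± 11.4 CPM in WT and 25.6 ± 1.96 CPM in TET2 KO (-1.03 ± 0.14). MT-CO1 was at 77.8 ± 6.76 CPM in WT and 58.1 ± 3.29 CPM in TET2 KO (-0.42 ± 0.06), all subunits of the respiratory chain. MT-CYB was at 32.1 ± 3.2 CPM in WT and 39.6 ± 1.13 CPM in TET2 KO (0.30 ± 0.07), a call lost with total gene counts (adjusted p = 0.0582) and on the second scale (0.52). Mitochondrial genes made up 0.046 ± 0.0049% of gene counts in WT and 0.0254 ± 0.002% in TET2 KO (SD, n = 3 each; exact two-sided permutation p = 0.1, adjusted p = 0.117 over 27 shares; 3 against 3 libraries cannot go below 0.1). Under shControl 15 of 32 were higher in TET2 KO and 0 lower.

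Germline genes and repeat-derived genes were mostly at low levels. Weakly covered genes as a whole were 12.5% higher and 38.3% lower (median -0.79), and the filter could admit them through the group where they were higher. Germline and meiosis genes were 1 of 19 higher and 9 lower (median -1.64; 0 and 0 of 2). SYCP2, of the synaptonemal complex, was at 36.8 ± 4.44 CPM in WT and 6.71 ± 0.421 CPM in TET2 KO (-2.45 ± 0.10). MEIOB was higher, at 76.3 ± 2.54 CPM in WT and 95.9 ± 2.82 CPM in TET2 KO (0.33 ± 0.04; 0.08, adjusted p = 0.111 on the second scale). Cancer-testis antigens were 7 of 18 higher and 1 lower (median 0.33; 4 and 0 of 10). MAGEA1 was at 1.22 ± 0.135 CPM in WT and 7.28 ± 0.663 CPM in TET2 KO (2.58 ± 0.21). SSX1 was at 8.13 ± 0.905 CPM in WT and 38.5 ± 1.53 CPM in TET2 KO (2.24 ± 0.09). MAGEC1 was at 7.33 ± 0.587 CPM in WT and 31.4 ± 1.36 CPM in TET2 KO (2.10 ± 0.10), members of X-linked families whose copies can share reads. CTAG2 had 0.601, 0.599 and 0.809 CPM in WT and no count in TET2 KO, at least 52.7-fold lower with 3 counts set over the group. Genes derived from endogenous retroviruses were 1 of 9 higher and 2 lower (median -0.40, but 0.09 without TET2 KO replicate 2; 1 and 0 of 1). ERVK13-1 was at 42.6 ± 3.48 CPM in WT and 78.5 ± 3.05 CPM in TET2 KO (0.88 ± 0.05). ERVMER34-1 was at 1.26 ± 0.147 CPM in WT and 0.179 ± 0.132 CPM in TET2 KO (-2.80 ± 0.56).

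The zinc-finger genes of chromosome 19 were 81 of 204 higher and 39 lower (median 0.18; 34 and 21 of 93, median 0.04). ZNF730 was read at 7.59, 6.17 and 7.21 CPM in the WT libraries and 49.4, 57.7 and 60.9 CPM in the TET2 KO libraries (log2 difference 2.99, SE 0.08, adjusted p = 7.56e-25). ZNF792 was at 27.5 ± 1.58 CPM in WT and 42.7 ± 1.87 CPM in TET2 KO (0.63 ± 0.06). ZNF880 was at 1.57 ± 0.348 CPM in WT and 0.078 ± 0.0722 CPM in TET2 KO (-4.34 ± 0.59). HOX genes were 6 of 11 higher and 2 lower (median 0.37; 2 and 0 of 3). HOXB3 was at 114 ± 5.14 CPM in WT and 150.4 ± 2.71 CPM in TET2 KO (0.40 ± 0.04). HOXB7 was at 52.0 ± 1.37 CPM in WT and 67.3 ± 5.46 CPM in TET2 KO (0.37 ± 0.06; 0.12, adjusted p = 0.0563 on the second scale). ZNF730, HOXB3, HOXB7 and MEIOB overlap another gene on their strand. Olfactory receptors, the background, were 3 of 61 higher and 19 lower (median -1.12; 2 and 4 of 8 on the second scale, median -0.32), below the median of all genes.

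The difference was uneven along the genome. Over 9808 genes of 8 CPM or more, 6082 were called higher and 1590 lower, with a median log2 difference of 0.26 (0.01 under shControl). Chromosome 15 had a median of 0.81, with 310 of 325 genes called higher and 7 lower, chromosome 8 one of 0.50, with 261 of 333 higher and 37 lower, and chromosome 7 one of 0.40, with 362 of 502 higher and 80 lower. The other nuclear chromosomes lay between 0.17 and 0.30. With strongly covered genes scaled on themselves, the medians were 0.57, 0.25 and 0.18 for chromosomes 15, 8 and 7, and 12 of the others turned below 0, of which chromosome X at -0.085 was the lowest.

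The same chromosomes stood apart under shControl, where the medians were 0.59 for chromosome 15, 0.40 for chromosome 8 and 0.19 for chromosome 7. Chromosome 15 held 2.42 ± 0.00477% of gene counts in WT and 3.58 ± 0.00601% in TET2 KO, and chromosome 8 held 3.64% and 4.19% (exact two-sided permutation p = 0.1 for both, adjusted p = 0.117). In windows of 10 Mb, 27 of 283 had a median more than 0.3 from that of all genes, 25 higher and 2 lower, and 22 of them went the same way by more than 0.3 under shControl. They took in all 9 windows of chromosome 15 and 8 of chromosome 8, 3 at the end of the long arm of chromosome 1 (220 to 250 Mb), 3 on chromosome 7, 2 on chromosome 5 and, as the lower ones, 130 to 140 and 150 to 160 Mb of chromosome X. Some genes named above lie in these windows. Among those higher in TET2 KO were IDH2, CCNB2, RPL4 and ISG20 on chromosome 15 and RPL7 and ATAD2 on chromosome 8. LBR on chromosome 1 and LINC02100 on chromosome 5 were higher too. CSMD3 of chromosome 8, which was lower, also lies in such a window. The lower windows of chromosome X hold FGF13, HCFC1 and CTAG2, which were lower, and USP26 and MAGEA1, which were higher. DNA copy number was not measured here, and its part in the differences along the genome was not tested.

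**Figure D5:**
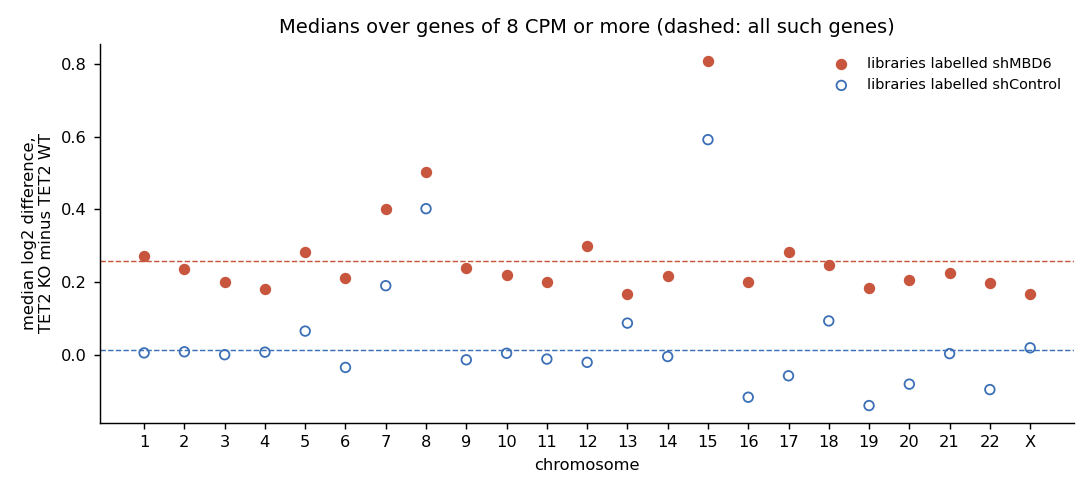
Points are the medians, over genes of 8 CPM or more on each chromosome, of the log2 difference, TET2 KO minus WT, for libraries labelled shMBD6 (filled) and shControl (open), and dashed lines mark the medians of all such genes. Chromosome 15 stands at 0.81 and 0.59 and chromosome 8 at 0.50 and 0.40. The 11 mitochondrial genes, which are not drawn, had medians of -1.13 and 1.58.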

How the data were processed

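The deposited files hold raw gene counts, 1 file a library, which the authors made with HTSeq 0.12.4 from reads trimmed with Trimmomatic 0.39 and aligned with HISAT2 2.2.1, per the submitters' notes and the study's methods, which give no strand setting here. Lines that name no gene (reads outside genes, ambiguous or not unique) were left out of library sizes and tests; reads not aligned uniquely were 10.4 to 11.2% of read records in the 6 libraries. Of 58721 gene IDs, 99.12% matched GENCODE on GRCh38, whose version was the same for 58.9%, and names and positions come from there; promoters come from RefSeq (GRCh38.p14).

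Groups and replicate numbers came from the sample titles. The 12 K562 libraries were fitted together in 4 groups with edgeR 4.0.16 (R 4.3.3; filterByExpr with a minimum count of 10, TMM, robust quasi-likelihood, two-sided), and the contrasts were TET2 KO minus WT under shMBD6, the same under shControl, and their difference. The study scaled by spike-ins, whose counts were not analysed here. Mouse libraries were not used. DESeq2 1.42.0, other scalings, filters, a replicate block and leaving out each library were tried. The fits on strongly covered genes (10 times the olfactory-receptor level per kb of gene, that level being counted against all read records; 3 counts as the floor for folds) were added after the data were seen. Scripts were tested on simulated counts.

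Named genes are TET2, MBD6, the 15 largest log2 increases and decreases and the 8 largest CPM changes each way among called coding or long noncoding genes of at least 5 CPM in the higher group with no overlap between groups, the 8 largest differences between the pairs each way, and the most covered or most changed members of each gene list, of which a few are not reported here. Genes named for the difference between the pairs had to be called for it and also under shMBD6. They needed at least 5 CPM in any of the 4 groups. The lists and the choice of comparison were made with earlier results of these data known.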

Additional observations from a re-analysis of the deposited data

Results flagged for a closer look

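The genotype difference under shMBD6 differed from that under shControl, by the test of the difference itself, for 12852 genes. Among them were TET2, by -0.45 on the log2 scale, and MBD6, by 0.75. The values of the named genes with the most positive difference were 5.58 for TUBB1, 5.30 for NT5DC4, 4.25 for C17orf99, 3.51 for RPS6KL1, 3.42 for HBG1, 3.19 for ST8SIA1, 3.12 for AREG and 3.06 for SGMS1-AS1. Those with the most negative were -7.16 for OOSP4B, -6.05 for NRP1, -5.88 for MS4A4E, -5.83 for TCN1, -5.67 for LINC02948, -5.45 for OLAH, -5.24 for LINC01121 and -5.20 for LRAT. Of the other 146 genes chosen by the rules for naming, 123 were called for this difference.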

How the results depend on the processing

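Called genes numbered 14606 to 15581 with other scalings, DESeq2's Wald test or no filter, 11363 with a filter of 1 CPM in 3 libraries and 13564 with only the 6 libraries compared; leaving out 1 library gave 14164 to 15454. Restricting the genes to the strongly covered ones gave 7044 calls (6102 scaled on themselves), 663 (492) at least 2-fold and 7019 (6584) for the difference between the pairs, and the stricter threshold of 10 times the olfactory-receptor level on the scale of the genes, also chosen after seeing the data, gave 5385, 374 and 5805, fewer genes being tested, and the 1 CPM filter left 3448 at least 2-fold. Higher genes were 53.6% of calls among strongly covered genes scaled on themselves, 83.4% with the factors of all genes, 44.3% with no filter, 55.3% with the 1 CPM filter and 41.0% with the Wald test. MBD6 was at 0.148 (total gene counts), 0.177 (Wald test) and 0.046 (strongly covered genes scaled on themselves; 0.042 at the stricter threshold), none of them called; on that last scale the signs of CCDC26 (-0.038, and -0.041 at the stricter threshold), C17orf99 (-0.045, -0.048), ASXL1 (-0.049, -0.052), DNMT1 (-0.044, -0.047) and EZH2 (-0.087, -0.090) turned, and the cause was not tested. Of 164 genes chosen by the rules for naming, 144 kept direction and call in all alternatives that gave them a value; the fits on strongly covered genes held 103 of them and the stricter one 94. With the replicate block 15340 genes were called, 12873 for the difference between the pairs and 6949 at least 2-fold. Deviations of same-numbered libraries correlated at 0.086, -0.032 and 0.088, and those of differently numbered ones at -0.174 to 0.105. With 3 libraries per group these values are not independent, so they cannot tell whether the numbers pair the libraries. Genes at or below 0.2 CPM rest on few counts, which limits their log2 values.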
